A study of Caenorhabditis elegans with 2 samples.

Results

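The aminoacyl-tRNA synthetase genes of Caenorhabditis elegans were taken as the nuclear protein-coding genes whose symbol is 1 letter followed by ars- and a number, and 32 of 19973 nuclear protein-coding genes met this rule. No gene of the symbol eprs-1 was in the annotation used, and ears-1, the cytosolic enzyme for glutamate, is among the 32. Of these genes 15 encode cytosolic enzymes, 12 encode mitochondrial enzymes, and 5 (cars-1, gars-1, hars-1, kars-1 and tars-1) were kept apart as single genes, taken to supply both compartments. The glutamine gene qars-1 is also the only one of the 32 for its amino acid and was counted as cytosolic, since animal mitochondria are known to charge their glutamine tRNA first with glutamate. RefSeq names the product of ears-2 as such a nondiscriminating glutamyl enzyme. The genes mars-1, wars-1 and vars-1 also stand alone among the 32, and RefSeq names a partner for each under another kind of symbol (Y105E8A.20, prx-10 and glp-4). For 12 of the 32 the compartment is stated in the RefSeq product name, and for the others it was assigned from general knowledge of the enzymes. The genes lie on chromosomes I (9), II (5), III (6), IV (8) and V (4), and 0 lie on X.

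Peaks came from chromatin immunoprecipitation followed by sequencing (ChIP-seq) of NHR-90, a nuclear hormone receptor and so a member of a large family of transcription factors. Whole hermaphrodites of strain OP484 were used, a transgenic line in which NHR-90 carries GFP and FLAG at its C terminus, and the protein was recovered with an antibody against GFP, while a separate antibody label names nhr-90. They were harvested as young adults 64 h after starved first-stage larvae had been synchronized, in 2 biological replicates of this 1 group. A control experiment is named by the submitters but was not used here, so no peak could be set beside a control, and peaks of whole animals do not show in which cells the protein was bound.

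Aminoacyl-tRNA synthetases join each amino acid to its own tRNAs, the step at which the genetic code is read into amino acids. Mitochondria make proteins from their own genome with their own tRNAs, so animals need synthetases in the cytosol and in the mitochondria, encoded by separate nuclear genes or by 1 gene whose product reaches both places. All tRNAs of the cytosol are transcribed by RNA polymerase III, while the synthetase genes are transcribed by RNA polymerase II.

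Each gene was given its strongest peak, by the authors' peak signal, whose summit lay from 1000 bp upstream to 500 bp downstream of an annotated transcript start. Of 4 lists on the ce11 build, the strictest held 1441 peaks. It was filtered by the irreproducible discovery rate (IDR), which scores how alike the replicates rank a peak. These were the 1441 strongest peaks of the pooled list, called from both replicates together, which held 30000 peaks down to a signal of 15.1. The pooled and replicate lists are titled as peaks and background, so their lower ranks need not be binding sites. Signals are on a scale of their own in each list, and lists were therefore compared by rank, with rank 1 the strongest.

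The 2 synthetase genes with the strongest pooled peaks were ears-2 and aars-1. The DNA in front of them is shown because it holds the summits of their peaks in all lists that reach them. Both stretches are on ce11, on the minus strand, written 5′ to 3′ toward the synthetase start. The first is the whole of the 91 bp between the divergent starts of ears-2 and uncp-18 (IV:390469-390559). The second is 248 of the 396 bp between the divergent starts of aars-1 and rga-1 (II:11464498-11464745). Capitals mark the 11 bases centred on the summit and, in aars-1 alone, a GAGAGAG match at base 209.
ears-2: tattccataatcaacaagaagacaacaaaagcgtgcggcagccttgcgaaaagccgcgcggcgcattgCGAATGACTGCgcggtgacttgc
aars-1: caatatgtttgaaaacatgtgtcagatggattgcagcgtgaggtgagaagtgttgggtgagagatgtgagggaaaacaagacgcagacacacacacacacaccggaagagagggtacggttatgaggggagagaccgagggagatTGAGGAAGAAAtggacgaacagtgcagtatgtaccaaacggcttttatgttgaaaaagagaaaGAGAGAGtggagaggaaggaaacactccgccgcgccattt

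Among the 32 synthetase genes, 1 had a summit of the IDR list at a start, a share of 3.12% beside 3.62% of all nuclear protein-coding genes (723 genes). That gene was ears-2, which encodes the mitochondrial glutamyl-tRNA synthetase. The cytosolic enzymes had such a peak in 0 of 15 cases, the mitochondrial enzymes in 1 of 12 (8.33%), and the 5 single genes in 0. A share of 1 in 32 is near the background, and a difference of 1 gene between the classes is no result about either. Among as many of the strongest nuclear peaks of replicate 1 alone there were 2 of 32 (aars-1 and ears-2), beside 3.74% of all genes, and among those of replicate 2 alone 1 of 32 (ears-2), beside 3.5%.

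The ears-2 gene (WBGene00001338, IV 388686 to 390468, minus strand) had a peak at IV 390430 to 390543 with a pooled signal of 174 at rank 455. In replicate 1 the strongest peak in its window had a signal of 102 at rank 459, and in replicate 2 a signal of 69.9 at rank 579. Both replicates thus held it among their strongest peaks, with summits 4 bp apart. The pooled summit lay 18 bp upstream of the start, in the sequence between ears-2 and uncp-18, at base 74 of the 91 printed above. Since the starts are so close, the same summit lay at -74 bp from the uncp-18 start (negative is upstream), and the peak cannot be given to either gene alone.

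Among the 723 genes with an IDR summit, 213 had a stronger peak than ears-2, whose signal was 1.75 times the lowest of the list (98.9). In the pooled and IDR lists its deposited peak was 114 bp wide, and 18 of the 1422 nuclear IDR peaks (1.27%) were narrower, while in replicates 1 and 2 it had the usual widths of 450 and 440 bp. The 25 other synthetase genes with a pooled peak had a pooled width of 450 bp, the list's median. A second pooled peak, with a signal of 32, overlapped the ears-2 peak and had its summit at -223 bp from the start. GC content was 59.4% in the 101 bp centred on the ears-2 summit, above the value at 92.7% of nuclear IDR peaks, whose median was 49.5%. The summit had 0 genes for small RNAs (tRNA, snoRNA or snRNA) within 100 bp.

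The aars-1 gene (WBGene00000196, II 11460205 to 11464497, minus strand), for the mitochondrial alanyl-tRNA synthetase, was the nearest below the IDR list. Its pooled peak had a signal of 77.7 at rank 2156, 21.4% below the lowest IDR signal. In replicate 1 the peak had a signal of 66.8 at rank 1133, and in replicate 2 a signal of 18.7 at rank 8655. It was therefore among the strongest peaks of replicate 1 and far down the list of replicate 2, although the summits were 12 bp apart. The pooled summit lay 98 bp upstream of aars-1, in intergenic sequence, and at -299 bp from the start of rga-1. The ce10 IDR list held 2232 peaks, and with as many pooled peaks on ce11 the count rose to 2 of 32 (6.25%), aars-1 and ears-2, beside 5.76% of all genes.

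**Figure D1:**
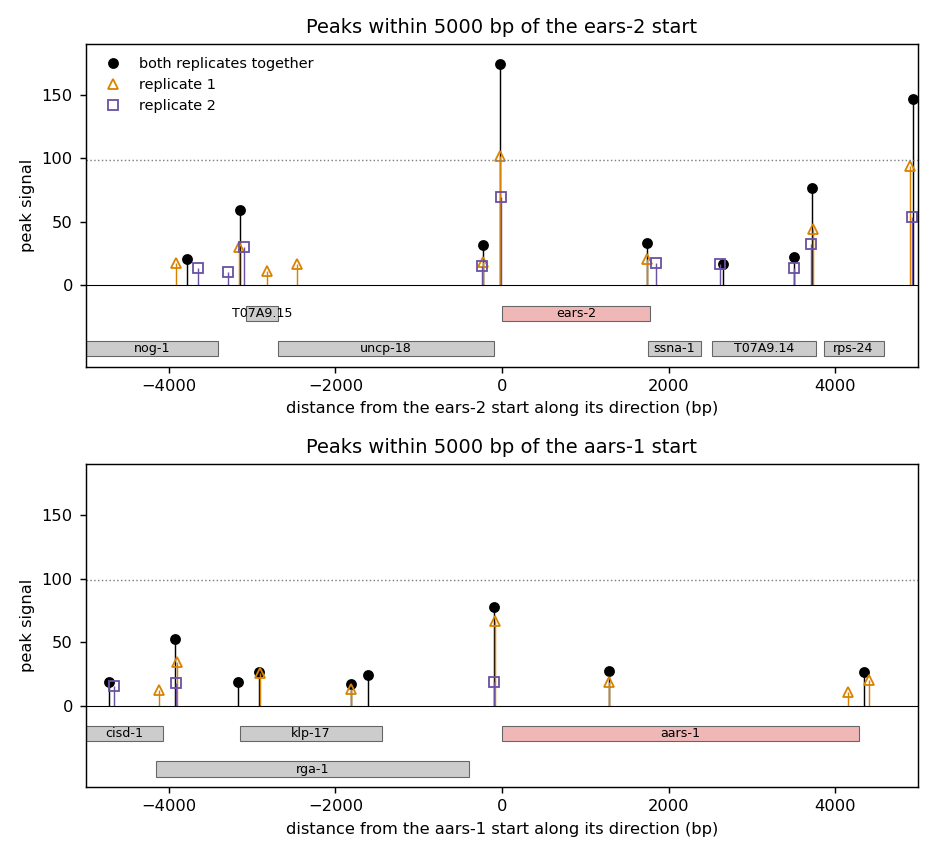
Peaks within 5000 bp of the ears-2 start (top) and the aars-1 start (bottom), with distance along the direction of the gene in bp on the x axis and the authors' peak signal on the y axis, for the pooled list and both replicates. Boxes are genes, the upper row in the direction of the synthetase, and the dotted line is the lowest IDR signal of the pooled scale, 98.9; each list has its own signal scale. The ears-2 summits of the 3 lists stand together at the start, and the peak at aars-1 ranks 1133 in replicate 1 and 8655 in replicate 2.

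The third gene in order was fars-3 (WBGene00001498, II 8464848 to 8467072), for the beta subunit of the cytosolic phenylalanyl-tRNA synthetase. Its pooled signal was 52.9 at rank 4243, with 26.3 at rank 6933 in replicate 1 and 31.3 at rank 3015 in replicate 2. The pooled summit lay at -383 bp from the start, within an annotated UTR of zyg-9, and the replicates' summits were 198 bp apart. Further cytosolic genes fell within the strongest 5000 pooled peaks: mars-1 (methionine) with a signal of 50.7, qars-1 (glutamine) with 50.5 and iars-1 (isoleucine) with 48.8. The iars-1 summit lay at -867 bp from that gene's start and in a coding exon of pges-2, 56 bp past the pges-2 start.

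Lower in the pooled list the share of synthetase genes with a summit was above that of genes in general. Within the strongest 5000 pooled peaks 6 of 32 (18.8%) had a summit at a start, beside 12.3% of all genes. Within 10000 it was 16 of 32 (50%), beside 21.5%. In the whole pooled list it was 26 of 32 (81.2%), beside 42%. Each replicate showed this on its own: 24 of 32 in replicate 1 (75%, beside 42.3% of all genes) and 27 of 32 in replicate 2 (84.4%, beside 41.8%). In both replicate lists at once there were 23 (71.9%), beside 31% of all genes. These lists share their reads in part, since the pooled list was called from both replicates.

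**Figure D2:**
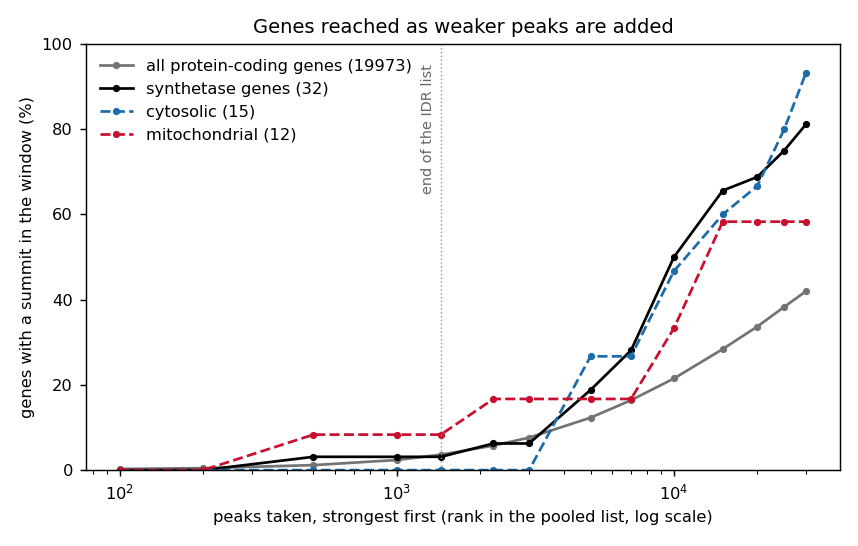
Percentage of genes with a summit at a start (y axis) as pooled peaks are taken from the strongest down (x axis, rank on a log scale), for all 19973 protein-coding genes, the 32 synthetase genes, and the cytosolic and mitochondrial enzymes. The synthetase line runs near that of all genes up to the end of the IDR list (3.12% and 3.62%, dotted line) and ends at 81.2% beside 42%.

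The windows themselves differed, and this was measured beside the counts. A synthetase gene had 2 annotated starts on average and a combined window of 2067 bp, beside 1.49 starts and 1800 bp for all genes. Among genes with 1 start, and so with equal windows, 10 of 13 synthetase genes (76.9%) had a pooled summit, beside 36% of 14498 genes. Per kb of window there were 0.862 pooled summits at the synthetase genes and 0.408 at all genes. The pooled peaks at synthetase genes were not stronger in the same measure: among genes with a pooled peak the median signal was 36.4 for the 26 synthetase genes and 34.2 for all 8390 genes, at median ranks of 8652 and 9686. A q-value of 0.05 or less was given by the authors to 8 of the 26 peaks (30.8%), and to the strongest peaks of 35.1% of all genes with one. The part that window length plays in the counts was not tested beyond this.

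Cytosolic and mitochondrial enzymes were set side by side by the number with any pooled peak and by the strength of the peaks. A pooled summit lay at 14 of 15 cytosolic genes (93.3%), at 7 of 12 mitochondrial genes (58.3%) and at all 5 single genes, beside 42% of all genes. In the strongest 10000 pooled peaks these counts were 7 of 15 (46.7%), 4 of 12 (33.3%) and 5 of 5. The order of cytosolic over mitochondrial was narrower in each replicate list: 11 of 15 (73.3%) and 8 of 12 (66.7%) in replicate 1, and 13 of 15 (86.7%) and 9 of 12 (75%) in replicate 2. Summits in both replicate lists were found at 66.7% of either class, so the wider gap of the pooled list was not seen there.

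By signal the classes overlapped. The pooled median was 33.4 for the 14 cytosolic genes, with a range from 17.2 to 52.9. For the 7 mitochondrial genes it was 34.1, from 31 to 174, and for the 5 single genes 41.3, from 36.2 to 46.5. The median over all genes, 34.2, thus lay within the range of cytosolic and mitochondrial genes and below each of the 5 single genes. In replicate 1 the medians were 18.8 (cytosolic), 25.1 (mitochondrial) and 25.3 (single genes), beside 21.5 for all genes. In replicate 2 they were 16.6, 18.7 and 22, beside 17.5. Only genes with a peak enter these medians, which leaves out 5 of the 12 mitochondrial genes and 1 of the 15 cytosolic genes in the pooled list, and no test was made over genes.

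The remaining genes had pooled signals from 31 to 46.5 in the upper part of the list. In order these were hars-1, tars-1, cars-1, lars-1, aars-2, gars-1, vars-1, kars-1, dars-1, iars-2, fars-2, nars-1, yars-2 and sars-2, for histidine, threonine, cysteine, leucine, alanine, glycine, valine, lysine, aspartate, isoleucine, phenylalanine, asparagine, tyrosine and serine. Each of these genes differed more in rank between the replicates than from their neighbours in this order. At the end came sars-1, rars-1, pars-1, fars-1, ears-1 and wars-1, all cytosolic, from 28.4 at rank 13354 (sars-1, serine) to 17.2 at rank 26451 (wars-1, tryptophan). The cytosolic ears-1, which uses the same amino acid as ears-2, had a pooled signal of 17.8 at rank 25403, no peak in its window in replicate 1 and a signal of 13 in replicate 2. The cytosolic aars-2, which uses the same amino acid as aars-1, had a pooled signal of 38.1 at rank 7899, with 20 in replicate 1 and 32.1 in replicate 2.

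No pooled summit lay in the window of 6 genes: the mitochondrial dars-2, lars-2, nars-2, pars-2 and rars-2 (aspartate, leucine, asparagine, proline and arginine) and the cytosolic yars-1 (tyrosine). The nearest pooled summit to a start of these genes was between 590 and 10332 bp away. Of these genes rars-2 still had a peak in each replicate list, with signals of 11.9 at rank 25394 and 25.9 at rank 4441, and pars-2 had one of 12.7 in replicate 2 alone. The absence of a pooled peak therefore means only that none was listed in the window.

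**Figure D3:**
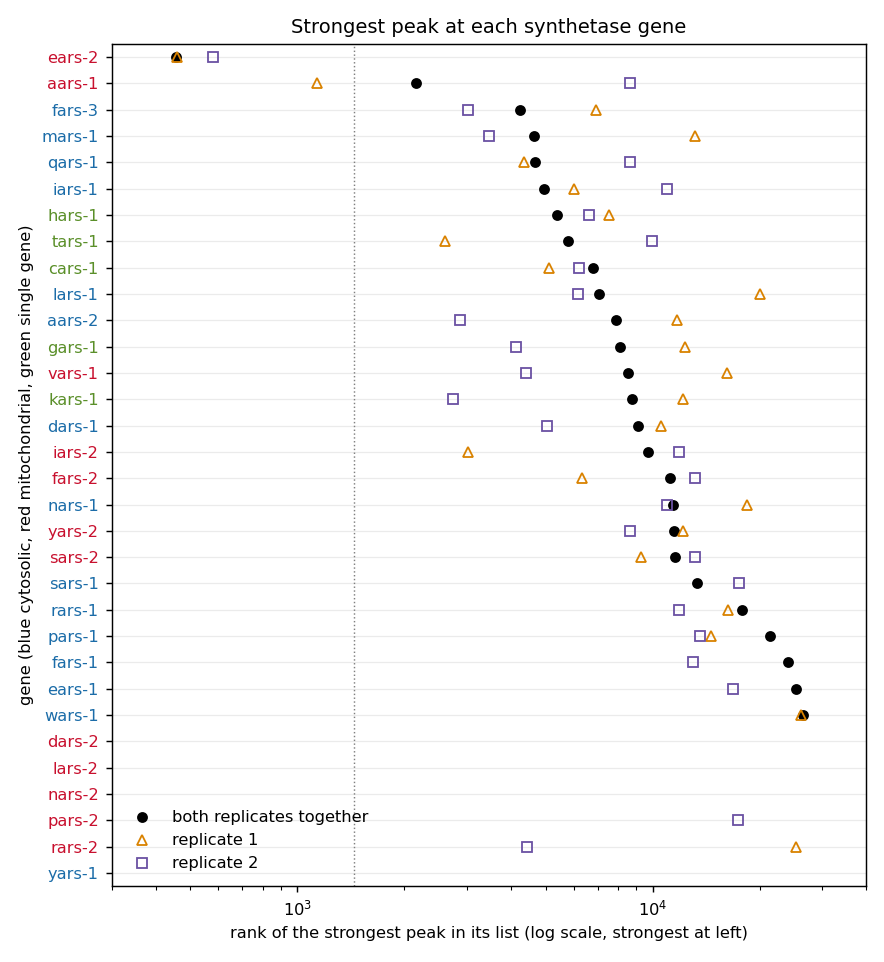
Rank of the strongest peak at each of the 32 synthetase genes (x axis, log scale, strongest at left) in the pooled list (filled circles), replicate 1 (triangles) and replicate 2 (squares), with genes on the y axis in order of pooled rank and coloured by class. The dotted line marks rank 1441, the length of the IDR list; ears-2 is left of it in all 3 lists, aars-1 in replicate 1 only, and 4 genes (dars-2, lars-2, nars-2 and yars-1) have no mark in any list.

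The replicates ranked the synthetase genes differently. Over the 23 genes with a peak in both replicate lists, Spearman's rank correlation of the signals was -0.0751, and it was -0.229 over 22 genes without ears-2. Over all 6193 genes with a peak in both lists it was 0.634, and over the 4742 of them in the same pooled rank range as the synthetase genes after ears-2 it was 0.379. These values are correlations across genes, which are not independent replicates, and with 23 genes in a narrow range of low signals the value is given as a description only. The rank was better in replicate 1 for 9 genes and in replicate 2 for 14. The list of replicate 2 is shorter (26622 peaks beside 30000), and the share over all genes was not computed. This count is therefore no result about the synthetase genes.

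Summit positions were compared as well. The strongest summits of the replicates lay within 100 bp of each other at 5 of 23 synthetase genes (21.7%): ears-2 (4 bp), iars-1 (10 bp), aars-1 (12 bp), mars-1 (29 bp) and rars-2 (93 bp). Over all genes with a peak in both lists the share was 43.8%, and over those with no IDR peak it was 38.1%. The median distance was 278 bp for the synthetase genes and 130 bp for all genes. Windows of synthetase genes were longer on average (2067 beside 1800 bp) and held more pooled summits per kb (0.862 beside 0.408). There were thus more peaks from which the strongest could be taken, and the part this plays in the distances was not tested. By class, summits within 100 bp were found at 2 of 10 cytosolic, 3 of 8 mitochondrial and 0 of 5 single genes. With the wider measure of any shared base, the strongest peaks of the replicates overlapped at 15 of 23 synthetase genes (65.2%), beside 73.6% of all genes and 70.7% of those with no IDR peak. Weaker peaks of 1 replicate at the summit of the other were not looked for.

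**Figure D4:**
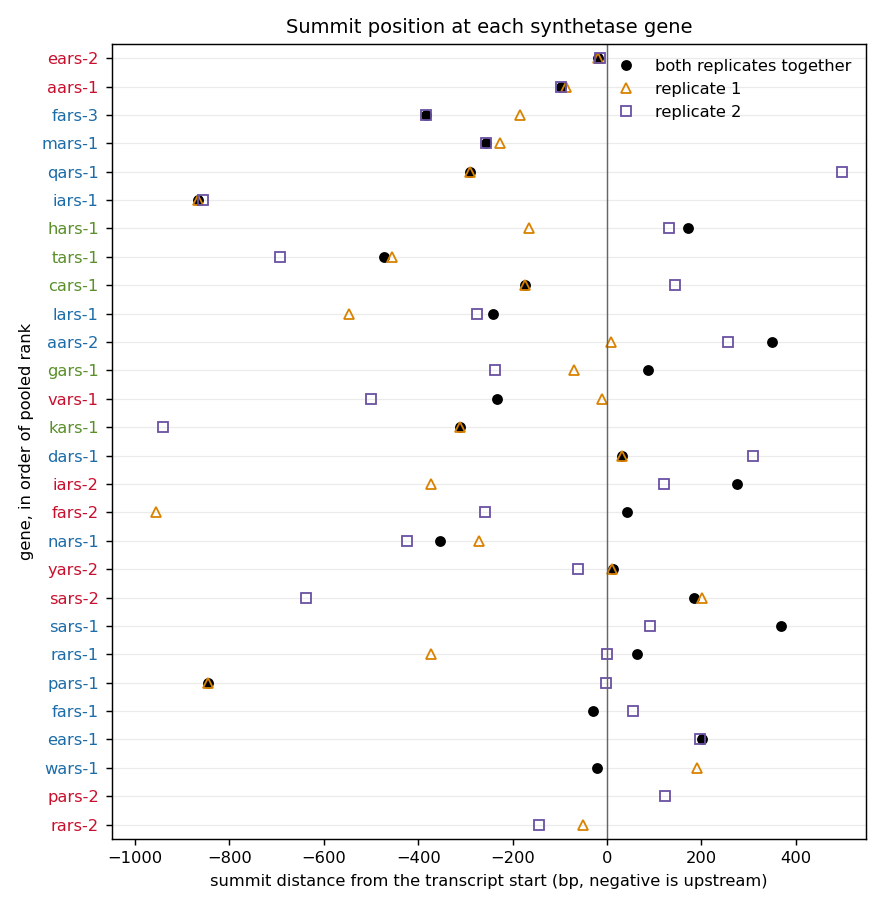
Distance of the strongest summit from the nearest transcript start whose window holds it (x axis, bp, negative upstream) at each synthetase gene with a peak in any list (y axis, in order of pooled rank), for the pooled list and each replicate. The 3 symbols coincide at ears-2 (within 4 bp) and at aars-1 (within 12 bp) and are more widely spread at most genes below. At genes with several starts the symbols can refer to different starts, so their spread need not equal the distance between the summits.

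Pooled summits at the synthetase genes lay upstream of the start in 15 of 26 cases (57.7%), beside 67.8% of all genes with a pooled peak, at a median of -25 bp beside -170 bp. By annotation 9 were intergenic, 8 in a coding exon, 5 in an intron and 4 in a UTR. The intergenic share was 34.6%, beside 44.6% of all genes. The same summit also lay in the window of another protein-coding gene in 12 of 26 cases (46.2%), beside 30.1% of all genes. Small-RNA genes lay within 100 bp of 0 of the 26 summits. The share over all genes was not computed for this count, so it is no result about the synthetase genes.

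Looking beyond the starts, an IDR summit lay inside 2 of the 32 genes (6.25%), beside 2.65% of all genes. In fars-1, the alpha subunit gene of the cytosolic phenylalanyl enzyme, it was an intronic peak with a signal of 326 at rank 78, higher than that of ears-2. Its summit lay within 100 bp of the snoRNA gene T08B2.13, which sits in that intron, and 1344 bp past the nearest fars-1 start, while the strongest pooled peak at the fars-1 starts had a signal of 18.7. In nars-2, the mitochondrial asparaginyl enzyme, it was an intronic peak on chromosome III (11496459 to 11496908) with a signal of 99.5 at rank 1426, just above the end of the list. That summit also lay at -181 bp from the start of another gene, Y66D12A.24.

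Within 5000 bp of the gene body an IDR summit was found for 5 of 32 (15.6%), beside 15.4% of all genes. These were ears-2, fars-1 and nars-2 above, iars-2 with a signal of 111 at -4917 bp from its start, and nars-1 with signals of 183 and 136 at 4948 and 3464 bp past the end of the gene. The share at this distance is that of genes in general. The ears-2 gene had a second IDR peak in this range, with a signal of 147, at -348 bp from the start of rps-24, which encodes a protein of the small ribosomal subunit.

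Motifs were searched on both strands in the 301 bp centred on each pooled summit, as letters, and no motif is contained in another. The E-box CACGTG was found at 0 of the 26 summits of synthetase genes, beside 12.9% of nuclear IDR peaks. The GA repeat GAGAGAG was found at 1, that of aars-1, where it lay 58 bp from the summit toward the gene, beside 19.1% of IDR peaks. The nuclear receptor motif AGGTCA and the GC box GGGCGG were each found at 1 of the 26, beside 9.7% and 13.3% of IDR peaks, and the GATA letters TGATAA at 5, beside 29.5%. At the ears-2 summit 0 of these 5 motifs matched. Of all gene promoters of the same length, from 250 bp upstream to 50 bp downstream of the first start, 5.84% held CACGTG, 6.79% GAGAGAG, 8.29% AGGTCA, 7.87% GGGCGG and 30.3% TGATAA. In those of the 32 synthetase genes the counts were 1, 2, 1, 2 and 7 in that order, which is near these shares. All of the 26 summits except that of ears-2 lie below the IDR list, so the IDR peaks are a stronger set. The shares over the pooled summits of all genes were not computed. The differences from the IDR peaks are therefore no result about the synthetase genes. A lack of matches says only that these letters were not in the window.

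Genes that act beside the synthetases were counted in the same way, in 4 lists matched by symbol. Of 24 symbols listed for tRNA maturation and modification 21 matched a gene, and of 16 for RNA polymerase III 12 did. Of 11 symbols for mitochondrial translation factors 6 matched, and all 12 for amino acid stress and supply did. The lists are therefore not whole sets. Of 21 genes for tRNA maturation and modification, 0 had an IDR summit at a start and 13 (61.9%) had a pooled one, beside 3.62% and 42% of all genes. This list also held gcn-1 and gcn-2, which belong to the amino acid stress response and not to tRNA maturation. A pooled summit lay at gcn-1 and none at gcn-2. Pooled summits were found at 7 of 12 genes for RNA polymerase III and its factors (58.3%). They were found at 3 of 6 genes listed as mitochondrial translation factors (50%). For amino acid stress and supply it was 10 of 12 genes (83.3%), a share like the 81.2% of the synthetase genes. Of 12 genes for RNA polymerase III and its factors 2 had an IDR summit. The first was rpc-2, the second-largest subunit, with a signal of 156 at rank 576. In replicates 1 and 2 rpc-2 had signals of 77.7 at rank 831 and 77.2 at rank 453. The other was rpac-19, a subunit shared with RNA polymerase I, with 118 at rank 1031. In replicate 1 rpac-19 had a signal of 34.6 at rank 3892, and in replicate 2 a signal of 84.9 at rank 356. The pooled rpac-19 summit also lay at -867 bp from the start of tbg-1. Of 6 genes listed as mitochondrial translation factors 1 had an IDR summit, mma-1, with a signal of 260 at rank 148. That summit lay 746 bp upstream of the start and within 100 bp of a small-RNA gene. The role of mma-1 as a translation factor was not established here, and the IDR count of this list rests on it alone. Of 12 genes of amino acid stress and supply 1 had an IDR summit, gln-3, a glutamine synthetase, with a signal of 114 at rank 1105. The gln-3 summit lay in an intron, at -724 bp from a start. The strongest summit in its window was at -122 bp in replicate 1 and at -776 bp in replicate 2. Lists of this size with 0 to 2 IDR peaks each were not told apart.

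The genes for the tRNAs that these enzymes charge were counted beside them. Every one of the 20 amino acids had at least 1 tRNA gene with an IDR summit within 100 bp, while 1 of 20, glutamate, had a synthetase gene with an IDR summit at its start. Over all nuclear tRNA genes such a summit was found at 399 of 612 (65.2%), with shares from 45% to 92.6% over the amino acids. For glutamate the tRNA genes with a summit were 32 of 41 (78%), and for alanine 26 of 34 (76.5%). Both shares lie within that range, and aspartate, with 92.6%, had no synthetase gene with an IDR summit at its start. The distances differ between these counts, with 100 bp around tRNA genes and the longer window at gene starts, and tRNA genes occur in many copies.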

How the data were processed

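The deposited files are narrowPeak lists of the NHR-90 ChIP-seq experiment, with 1 list per replicate, 1 called from both replicates and 1 IDR list, on ce11 and ce10, per the labels and the deposited text records. Not given in the sources used here are the aligner, the caller, their versions and the threshold behind the IDR list. Peak signal, −log10 q-value and summit offset are the authors' deposited values; signal was used to rank peaks within a list. Read depth is unknown, so no interval was computed. The lists held 1441 (IDR), 30000 (pooled), 30000 (replicate 1) and 26622 (replicate 2) peaks on ce11.

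Genes and transcript starts came from Ensembl release 115 on WBcel235, the assembly of ce11, and sequence and product names from RefSeq on the same build. Of the ce10 lists only the number of IDR peaks was used. For each gene the strongest peak with its summit in the window of any annotated start was kept (Python 3.11.15, SciPy 1.17.1), and the script recovered peaks planted in simulated lists. The design has 1 group of 2 replicates, so counts and medians are set beside those of all protein-coding genes with no test. Genes named with values are those with an IDR peak or within the strongest 2232 pooled peaks, those next to the end of the IDR list, and pathway genes with an IDR peak. The other synthetase genes are named with ranges, and those given their own values beyond this rule were chosen after the values were seen. The members and lists were chosen with earlier results of these data known. Alternatives varied the window, the list, the number of peaks and the class of the single genes.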

Additional observations from a re-analysis of the deposited data

How the results depend on the processing

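Over 58 alternative values, 41 stayed within 1.5 times the count or within the spread of the replicates, and 17 moved. Some of the 41 could not have moved, so the tally is no measure of stability. The count of synthetase genes with a peak was 1 to 2 when either replicate was left out, and that of mitochondrial genes was 1 to 2, since aars-1 joined ears-2 in the strongest peaks of replicate 1. Both counts were also 2 with as many pooled peaks as the ce10 IDR list holds. The cytosolic count was 0 under every alternative run, but many of these could not have raised it. The shorter window, the outermost or nearest start and the stronger part of the IDR peaks can only lower a count. The same holds for leaving out summits near small-RNA genes or moving qars-1 out of the class. Adding the single genes could not change it either, since none of them had an IDR summit at a start. For all protein-coding genes the count of 723 became 418 with a window of 500 bp upstream only, 1090 with 2000 bp upstream to 1000 bp downstream, 337 with the stronger part of the IDR peaks, and 1150 with 2232 pooled peaks. The cytosolic median signal of 33.4 became 31.3 with the shorter window, 37.8 with the longer one and 37.7 with the single genes counted as cytosolic. It was 31.3 with qars-1 counted among the single genes instead, and both of these alternatives were chosen after seeing the data. The mitochondrial median of 34.1 became 48.1 with the longer window. From 1 replicate alone the medians were 16.6 to 18.8 (cytosolic) and 18.7 to 25.1 (mitochondrial), on the scale of those lists, which differs from that of the pooled list by construction. No paired analysis was possible because there is 1 group. With 1 gene in the IDR list, a change of 1 gene doubles the count. The assignment of peaks at divergent or overlapping genes, the control and the read depth limit what these counts show.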

Other observations

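RefSeq names 4 further tRNA ligase genes whose Ensembl symbols do not follow the naming rule, and they were looked up after the values of the others were seen. K03B4.1, named as a seryl-tRNA synthetase, had a pooled signal of 53.5 at rank 4156 with its summit at -647 bp from the start (negative is upstream). Its strongest peak had a signal of 41.3 at -602 bp in replicate 1 and of 21.7 at 38 bp in replicate 2. The valyl enzyme gene glp-4 had a pooled signal of 38.3 at rank 7812 with its summit at -553 bp. Its strongest peak had a signal of 27.9 at -547 bp in replicate 1 and of 12 at 194 bp in replicate 2. At both genes the replicate 2 value thus belongs to a summit elsewhere in the window. For prx-10, named as a mitochondrial tryptophanyl enzyme, the pooled signal was 18.7 at rank 24079, and replicate 1 held no peak in its window. The mitochondrial methionyl enzyme gene Y105E8A.20 had no peak in its window in the pooled or replicate lists. None of the 4 had an IDR summit at a start, and 3 of the 4 had a pooled one.

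Among the genes for tRNA maturation, those with the highest pooled signals were elpc-4, a subunit of the Elongator complex that modifies tRNA wobble bases, at 67.3 (rank 2780), and hoe-1, the tRNA 3′ processing endonuclease, at 61.5 (rank 3258). Both were named after their values were seen. In replicate 1 hoe-1 had a signal of 46.9 at rank 2220 with a summit at -135 bp, and in replicate 2 a signal of 17.4 at rank 9923 with a summit at -917 bp. For elpc-4 the replicate signals were 29.2 and 34.6, with summits at -959 and -946 bp. The pooled elpc-4 summit lay at -956 bp, near the far edge of the window. It also lay in the window of another gene, C26B2.7, and closer to the start of that gene. The elpc-4 peak therefore cannot be given to elpc-4 alone.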
